A study of Mus musculus with 6 samples.

Results

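The miR-26 family was followed in 3 mouse liver tumours and in the 3 samples of liver that bordered them. Its members were chosen by name: every row of the deposited table called miR-26a or miR-26b, with any copy number or arm. The rule found 3 of the 695 mature mouse microRNAs in the table, which are mmu-miR-26a, mmu-miR-26b and mmu-miR-26b* (below without the species prefix). The asterisk stands for the arm of the hairpin that is usually discarded. Both groups came from C57BL/6J mice given 3E10 particles of AAV-Rian-CMV, a vector built on adeno-associated virus, into the superficial temporal vein the day after birth, and tissue was frozen at 6 months of age. Its target, Rian, is a non-coding RNA gene of the imprinted Dlk1-Dio3 region. The adjacent liver therefore carries the same treatment as the tumours, and liver of untreated mice was not analysed here. Levels were read on Agilent microRNA arrays of 1 colour, and the deposited values are log2 signals after RMA, which corrects background, brings the arrays to a common distribution and combines the probes of each microRNA. The pairs of tumour and adjacent liver are called here by their numbers 1293, 1309 and 1316, although for the third tumour a second label reads 1306. No label states that the tumours came from separate animals, so p-values measure the spread between these pieces of tissue.

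MicroRNAs are short RNAs that guide Argonaute proteins to messenger RNAs, chiefly by pairing of their seed, the bases at positions 2 to 8 counted from 1 at the 5′ end, and so lower the output of those messengers. The miR-26 guides are abundant in adult liver and are lower in many human liver cancers. Known targets include the histone methyltransferase gene Ezh2 and cyclin genes of the D and E types, and delivery of miR-26a by a viral vector slowed tumours in a mouse model of Myc-driven liver cancer. The hairpins lie in introns of genes for small CTD phosphatases, which themselves restrain entry into the cell cycle.

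The mature sequences are shown because they set what the arrays could tell apart. RefSeq (GRCm38.p6) held all 3 table rows, with the guides taken as the 5p arms and miR-26b* as the 3p arm. They come from 3 hairpins, Mir26a-1 on chromosome 9 within the span of Ctdspl, Mir26a-2 on chromosome 10 within Ctdsp2, and Mir26b on chromosome 1 within Ctdsp1, each on the plus strand. Capitals mark the seed.
miR-26a (5p arm of Mir26a-1 and Mir26a-2): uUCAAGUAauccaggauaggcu
miR-26b (5p arm of Mir26b): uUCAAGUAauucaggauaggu
miR-26b* (3p arm of Mir26b): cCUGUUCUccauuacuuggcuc
miR-26a-1 3p arm, no row in the table: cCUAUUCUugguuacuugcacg
miR-26a-2 3p arm, no row in the table: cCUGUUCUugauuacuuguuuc

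Mir26a-1 and Mir26a-2 give the same guide, so the miR-26a row sums the output of 2 genes and cannot assign it to either. The guides miR-26b and miR-26a share the seed UCAAGUA and differ over their first 21 bases by U11C and U21C (the base of miR-26b first), and miR-26a has 1 base more. Among the 1679 mature microRNAs of the RefSeq table, these guides were the only 2 with that seed. Their near identity means that probes for one may read the other, so the split of signal between the 2 rows is uncertain. The star arm has another seed, CUGUUCU, which it shares with the 3p arm of Mir26a-2 but not with that of Mir26a-1. Both measured rows of Mir26b come from 1 hairpin, shown with its 5p and 3p arms in capitals.
Mir26b hairpin: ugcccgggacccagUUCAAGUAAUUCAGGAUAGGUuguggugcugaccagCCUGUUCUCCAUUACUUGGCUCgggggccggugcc

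The arrays had medians between 6.39 and 6.44. Adjacent pieces were alike, with a mean correlation of each to the others of at least 0.995 over all rows, whereas tumour 1293 stood apart from the other tumours at 0.888, against 0.935 and 0.936 for tumours 1309 and 1316. The differences of the members, the counts of calls and the nearest patterns are therefore also given without tumour 1293. Precision is limited by the 6 arrays, and an exact two-sided permutation test of 3 against 3 cannot give a p below 0.10. In bulk tissue, fewer cells of a type and less of a microRNA per cell cannot be told apart.

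Both guides had lower values in every tumour than in any adjacent piece, by about 2-fold on average, while the star arm showed no such separation. For miR-26a, adjacent liver gave 9.43, 9.51 and 9.55 and the tumours 7.79, 9.07 and 8.22 (pairs 1293, 1309 and 1316, log2 signal). Adjacent pieces lay close together, tumour 1309 was nearest to them, and tumour 1293 was the lowest. The means were 9.50 ± 0.06 (SD, n = 3) in adjacent liver and 8.36 ± 0.65 (SD, n = 3) in tumours, a difference of -1.14 ± 0.31 (SE) on the log2 scale. The tumour signal was thus 45.5% of the adjacent signal, or 2.20-fold lower with a 95% interval of 1.30 to 3.73. Without array weights, limma pools the spread of both groups. Its intervals and p-values thus treat the spreads as equal, although the SDs here were 0.06 and 0.65. The limma adjusted p over all 695 microRNAs was 0.12 (unadjusted p = 0.011), which misses the threshold of 0.05. The exact permutation test gave p = 0.10, its smallest possible value, for miR-26a and for miR-26b below.

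For miR-26b, the guide from the third hairpin, adjacent liver gave 9.71, 9.87 and 9.79 and the tumours 8.56, 9.44 and 8.74. The tumours stood in the same order as for miR-26a, and the groups again did not overlap. Means were 9.79 ± 0.08 and 8.91 ± 0.46 (SD, n = 3 each), a log2 difference of -0.88 ± 0.23 (SE; limma adjusted p = 0.11, unadjusted p = 0.0082). The tumour signal was 54.5% of the adjacent signal, or 1.84-fold lower with a 95% interval of 1.25 to 2.69.

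For the star arm miR-26b*, which is released from the same hairpin as miR-26b, adjacent liver gave 6.53, 6.40 and 6.41 and the tumours 6.95, 6.47 and 6.43. The groups overlapped, and tumour 1293 alone stood clear of the other values. The mean was 6.45 ± 0.07 in adjacent liver and 6.62 ± 0.29 in tumours (SD, n = 3 each), a log2 difference of 0.17 ± 0.15 (SE; limma adjusted p = 0.59). Its values lay near the array medians, and without detection calls it is not known how far they exceed background. Without tumour 1293 the difference was 0.0040 ± 0.06 (SE).

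**Figure D1:**
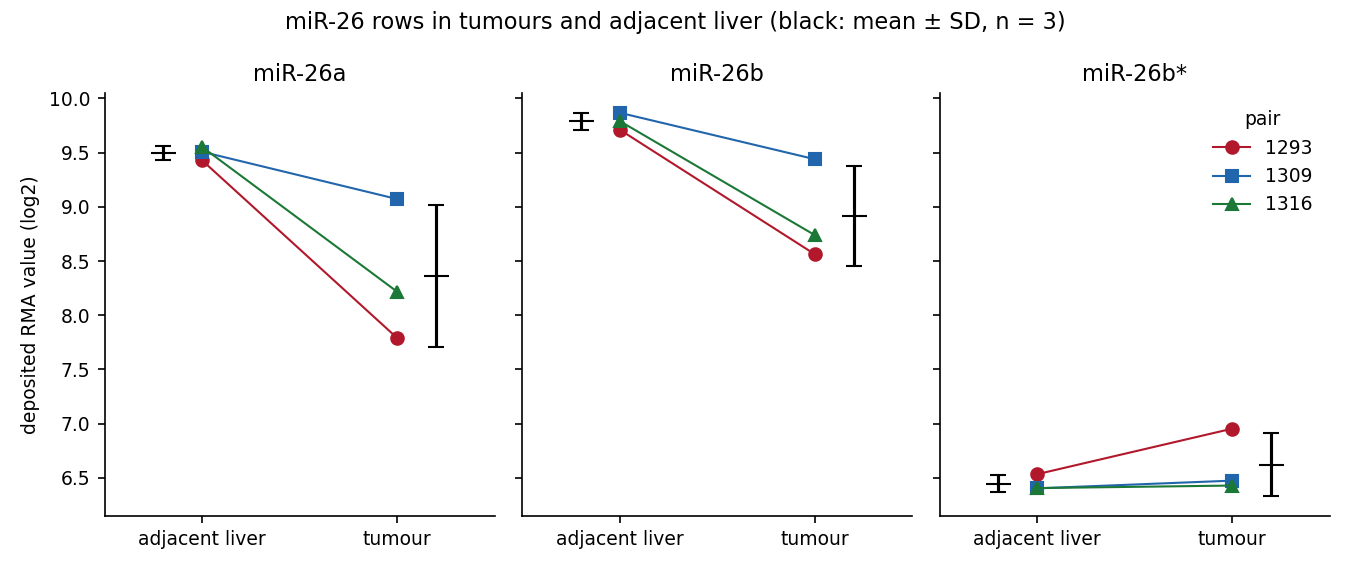
Deposited log2 values of the 3 miR-26 rows (vertical axis) in adjacent liver and tumour (horizontal axis). Coloured points joined by a line are the tissues of a pair, and black bars are the group mean ± SD (n = 3). The miR-26a tumours run from 7.79 to 9.07, all below the adjacent pieces at 9.43 to 9.55, whereas the groups overlap for miR-26b*, with tumour 1293 highest at 6.95.

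Limma called 0 of the 3 rows, where 2.88% of all microRNAs were called and 0.288% were called lower. At an unadjusted p under 0.05 both guides were lower, as were 14.1% of all microRNAs. Groups that did not overlap, with tumours lower, were found for 22.9% of all microRNAs and for 56.3% of the 174 brightest ones, those above the 75th percentile of mean signal, so the separation of the guides is shared with many bright microRNAs. By size, miR-26a had the second lowest difference of the 695, after miR-101a at -1.19, and miR-26b had the seventh. Without tumour 1316, miR-26a kept place 2 and miR-26b moved to place 16. A lower mean in tumours was seen for 59.6% of all microRNAs and 75.9% of the 174 brightest. The median difference was -0.03 over all microRNAs and -0.29 over the 174 brightest, which include both guides. Only 0.432% of all microRNAs had a log2 difference of -1 or lower. Dim microRNAs had little room for such a fall. The median of the mean signal over all microRNAs was 6.42, and the lowest value on any array was 5.83. Places and shares among all 695 by size of fall therefore compare the guides mainly with bright microRNAs.

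The tumours varied far more than the adjacent pieces in both guides. For miR-26a the tumour SD was 10.4 times the adjacent SD, and only 2.45% of all microRNAs had a larger SD among tumours. For miR-26b this ratio was 5.94, and 8.49% had a larger tumour SD. Median SDs were 0.14 in tumours and 0.05 in adjacent liver over all microRNAs, and 0.35 and 0.05 over the 174 brightest, so a wide spread among tumours was common to bright microRNAs. Leaving out tumour 1309, the tumour closest to its adjacent piece, gave -1.49 ± 0.14 (SE) for miR-26a (limma adjusted p = 0.0048) and -1.14 ± 0.09 for miR-26b (adjusted p = 0.0027), where 5.32% of all microRNAs were called lower. Leaving out tumour 1293, which stood apart, gave -0.85 ± 0.23 and -0.70 ± 0.19 (limma adjusted p = 0.047 and 0.049), where 12.2% were called lower. Leaving out tumour 1316, whose labels disagree, gave -1.06 ± 0.37 and -0.79 ± 0.26, and neither passed (limma adjusted p = 0.25 for both), in a setting where 0 of the 695 microRNAs, or 0%, were called lower. Both guides also passed limma when the 174 brightest were tested alone (adjusted p = 0.043 for each, 6.32% called lower) and with array weights (adjusted p = 0.014 for each, 12.5% called lower). Alone, miR-26b passed limma with array weights plus the replicate block (adjusted p = 0.049, 5.04% called lower) and without pair 1309 (adjusted p = 0.034, 0.863% called lower).

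**Figure D2:**
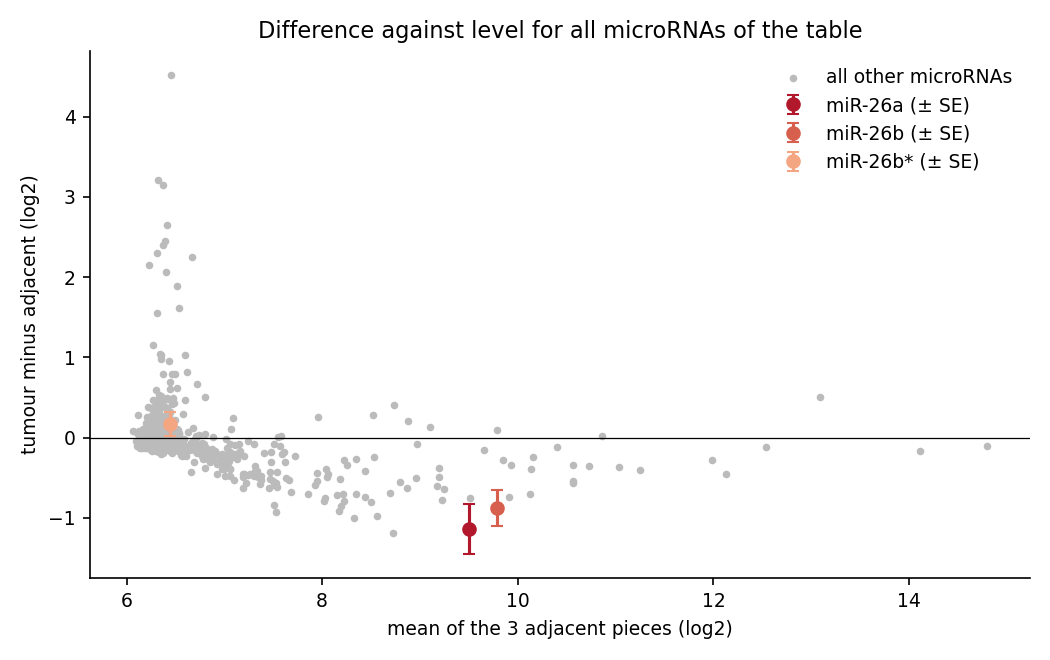
Tumour minus adjacent difference (log2, vertical axis) against the mean of the 3 adjacent pieces (log2, horizontal axis) for the 695 microRNAs, each a grey point, with the miR-26 rows in colour (± SE from limma). Bright microRNAs mostly lie below 0, and miR-26a at -1.14 and miR-26b at -0.88 lie along the lower edge.

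Pair by pair, both guides were lower in all 3 tumours. For miR-26a the difference was -1.64 in pair 1293, -0.44 in pair 1309 and -1.34 in pair 1316, or 3.11-, 1.35- and 2.52-fold lower. It ranked second, twelfth and first from the lowest among the 695 differences of these pairs. For miR-26b the differences were -1.15, -0.43 and -1.05, or 2.22-, 1.35- and 2.07-fold lower, at places 19, 14 and 8 from the lowest. All 3 differences were under -0.4 for both guides, as they were for 2.16% of all microRNAs. Over the brightest microRNAs defined above, the median difference was -0.51 in pair 1293, -0.17 in pair 1309 and -0.24 in pair 1316. Bright microRNAs in general thus also had their largest median fall in pair 1293 and their smallest in pair 1309. Fitted with a replicate block for the pair, miR-26a had a limma adjusted p of 0.16 and miR-26b of 0.14 (1.73% of all microRNAs called, with 0%, or 0 of 695, called lower).

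The place of a microRNA on its array does not depend on the scale of the values. Counted from the brightest, miR-26a stood at places 25, 23 and 24 in adjacent liver and at 65, 28 and 53 in tumours 1293, 1309 and 1316. The places of miR-26b were 22, 20 and 23 in adjacent liver and 42, 23 and 40 in tumours. In tumour 1309 both guides thus nearly kept their places, and miR-26b ended at a place that 1 adjacent piece also held.

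The difference of a member relative to another on the same array is free of any shift common to that array. The 3 such comparisons were tested by exact permutation, and each gave p = 0.10, the smallest that 3 arrays against 3 allow (also 0.10 adjusted over the 3). For miR-26a relative to miR-26b, the tumour minus adjacent difference was -0.49, -0.0076 and -0.28 in pairs 1293, 1309 and 1316, a mean of -0.26 ± 0.24 (SD, n = 3 pairs). Pair 1309 thus showed almost no difference between the guides, and without tumour 1293 the mean was -0.15. Relative to miR-26b*, the other arm of its own hairpin, the values for miR-26b were -1.57, -0.50 and -1.07, a mean of -1.05 ± 0.54 (SD, n = 3 pairs). That mean was -0.70 without tumour 1293. Relative to the same star arm, miR-26a had a mean of -1.31 ± 0.78 (SD, n = 3 pairs), and of -0.86 without tumour 1293. Since miR-26b* lay near the array medians, a loss of that arm could hardly have been seen on this scale.

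The microRNAs whose pattern over the 6 arrays was most like that of the guides were sought among the other 172 of the 174 brightest. Likeness was the root mean square difference between values after subtraction of each microRNA's own mean, so smaller is closer. Nearest to miR-26a were miR-151-5p (0.164), miR-101a (0.165), miR-31 (0.182), miR-99a (0.191) and miR-23b (0.233). The partner guide miR-26b lay at 0.179 from miR-26a, between miR-101a and miR-31, so that 2 microRNAs of other families were closer to miR-26a than its own family member. Nearest to miR-26b were miR-31 (0.0736), miR-194 (0.0966), miR-23b (0.108), miR-99a (0.109) and miR-455 (0.111). Seen from miR-26b, miR-26a was at place 13, so that 12 microRNAs of other families were closer. This place was 5 without tumour 1293, 14 without tumour 1309 and 54 without tumour 1316. The place of miR-26b seen from miR-26a was 4, 4 and 10 in these settings.

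These neighbours are a description of 6 arrays that share 3 pairs of tissue and a normalization, and they have no test. Tumour minus adjacent differences of miR-101a, which also targets Ezh2, were -1.96, -0.54 and -1.07 in pairs 1293, 1309 and 1316. For miR-31 they were -1.30, -0.41 and -1.06. In these microRNAs, too, tumour 1309 was the closest to its adjacent piece. Tumours in the order of miR-26a, with a lower mean than adjacent liver, were found for 24.5% of all microRNAs and 43.7% of the 174 brightest. The named neighbours depended on single tumours: without tumour 1293, 3 of the 5 for miR-26a and 2 of the 5 for miR-26b stayed among the nearest 5. Without tumour 1316, 2 and 1 stayed, and without tumour 1309, 4 and 5.

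**Figure D3:**
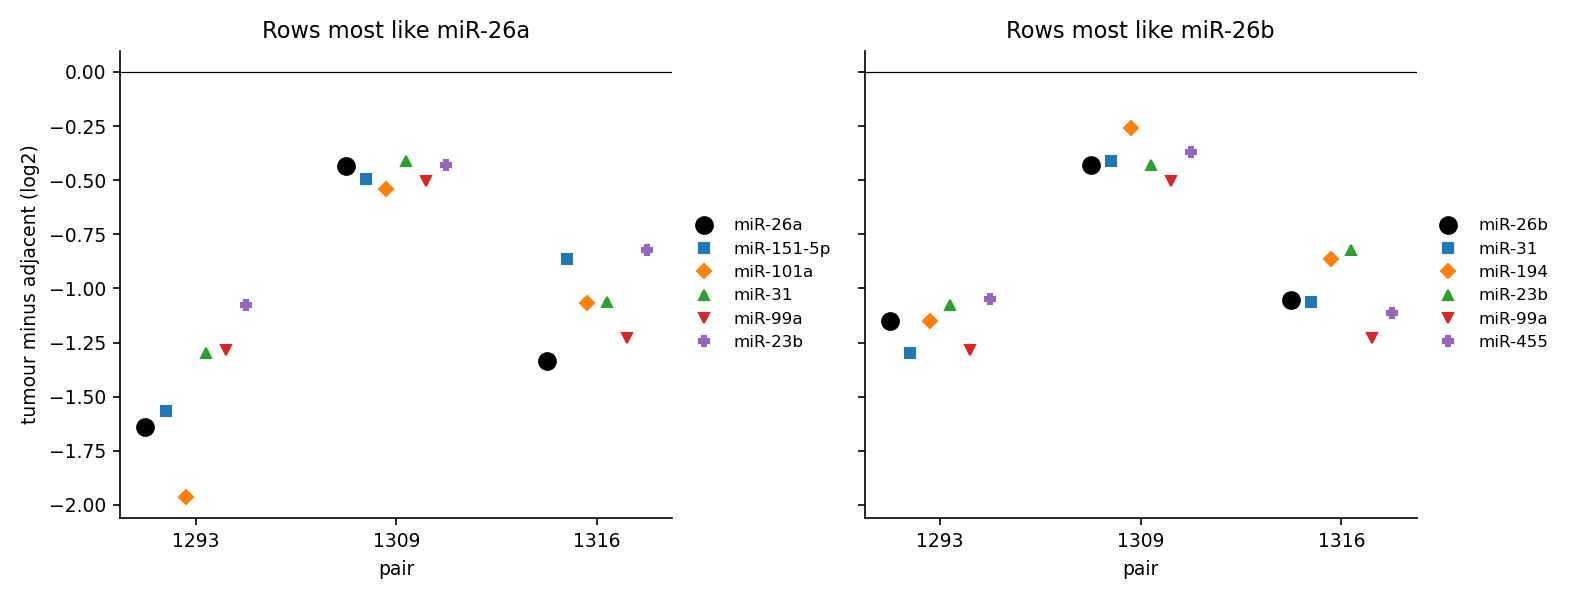
Tumour minus adjacent differences (log2, vertical axis) in pairs 1293, 1309 and 1316 (horizontal axis) for miR-26a and miR-26b (black) and the 5 microRNAs nearest to each (coloured symbols, shifted sideways for sight). All lie below 0, and all are closest to 0 in pair 1309, where miR-26a is at -0.44 and miR-26b at -0.43.

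Of 5 other microRNAs known to target Ezh2, 4 had a lower mean in tumours, as had 59.6% of all microRNAs. Limma called 0 of the 5, where 0.288% of all microRNAs were called lower. At an unadjusted p under 0.05, 3 were lower, as were 14.1% of all microRNAs. The log2 differences were -1.19 ± 0.37 (SE) for miR-101a, -0.69 ± 0.26 for miR-101b and -0.53 ± 0.18 for miR-214, a microRNA also found in stromal cells. Those of miR-124, a neural microRNA, and miR-138 were -0.05 ± 0.06 and 0.0048 ± 0.05. Both had adjacent means of 6.27, under the array medians, so a fall could hardly have been seen in them. The median of the 5 was -0.53, against -0.03 over all microRNAs. Without tumour 1293 the median was -0.32 and 3 were called lower, where 12.2% of all microRNAs were called lower and 7.34% higher.

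Among families of abundant liver microRNAs, all 9 let-7 guides, which restrain Ras and Myc, had lower means in tumours with a median log2 difference of -0.37, led by let-7e at -0.79 ± 0.24 (SE). All 5 miR-30 guides were lower in mean (median -0.40), led by miR-30d at -0.70 ± 0.23. The 3 guides of miR-29, which lowers collagens, had a median of 0.02, with miR-29c at -0.40 ± 0.14. Limma called 0 members of these families with all arrays, where 0.288% of all microRNAs were called lower. At an unadjusted p under 0.05, 6, 5 and 1 were lower, as were 14.1% of all microRNAs. A lower mean was seen for 75.9% of the 174 brightest microRNAs, which include all 17 of these guides. None of these 17 guides had a difference as low as that of miR-26b. Without tumour 1293 the medians were -0.32, -0.34 and 0.03, and limma called 1 let-7 and 5 miR-30 guides lower and 1 miR-29 guide higher (12.2% of all microRNAs lower, 7.34% higher).

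In a list of 35 measured microRNAs that are lower in many liver cancers, which holds several of those just named, 31 had a lower mean in tumours. The median was -0.41. A lower mean was seen for 59.6% of all microRNAs. Of the list, 31 were among the 174 brightest, and 29 of these had a lower mean, against 75.9% of the 174. Limma called miR-200a (-0.63 ± 0.11, SE) and miR-200b (-0.57 ± 0.10) lower, both epithelial microRNAs. Over all microRNAs it called 0.288% lower. Of the 35, only miR-101a lay below miR-26a, and miR-101a, miR-99a and miR-195 lay below miR-26b. Without tumour 1293, 18 were called lower and 1 higher, against 12.2% and 7.34% of all microRNAs.

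Most markers of the cell types in liver had lower means in tumours, but few passed the test. Lower means were also seen for 59.6% of all microRNAs and 75.9% of the 174 brightest. The labelled tissue held miR-122, the main hepatocyte microRNA, at a difference of -0.11 ± 0.12 (SE; limma adjusted p = 0.66). All 7 microRNAs of the hepatocyte list had lower means in tumours (median -0.69), led by miR-101a. The list shares miR-101a and miR-101b with the Ezh2 list above, and its median is the value of miR-101b. Its summed level ran from 15.10 to 15.14 in adjacent liver and from 14.68 to 15.10 in tumours (log2 of summed signals). That sum is mostly miR-122, the brightest microRNA of the table (mean 14.80 in adjacent liver), so it says little about the dimmer members. Lower in mean were 5 of 7 stromal microRNAs, led by miR-199a-3p at -0.85 ± 0.18 (SE), with summed levels of 10.15 to 10.22 against 9.70 to 9.85. So were 4 of 6 leukocyte microRNAs, led by miR-146a at -0.59 ± 0.22, with 9.97 to 10.18 against 9.48 to 10.03. Bile duct and other epithelial microRNAs were lower in 5 of 5, with 9.20 to 9.32 against 8.70 to 8.94. Both endothelial microRNAs, led by miR-126-5p at -0.39 ± 0.15, summed to 10.49 to 10.59 against 10.25 to 10.56, and both erythroid ones, led by miR-144 at -0.46 ± 0.23, to 9.50 to 10.41 against 9.44 to 10.08. With all arrays, limma's only calls among these markers were miR-200a and miR-200b, where 0.288% of all microRNAs were called lower. Without tumour 1293, where 12.2% of all microRNAs were called lower, it called 3 hepatocyte, 5 stromal, 1 leukocyte, 3 epithelial, 1 endothelial and 0 erythroid markers lower. List medians were then -0.45 for hepatocytes, -0.32 for stroma, -0.06 for leukocytes, -0.48 for epithelia, -0.17 for endothelium and -0.12 for erythroid cells, against -0.69, -0.49, -0.29, -0.40, -0.25 and -0.31 with all arrays. Values of 0 do not occur on this scale. The dimmest hepatocyte, stromal, leukocyte and epithelial markers had adjacent means of 6.39, 6.28, 6.44 and 6.48. These lie near the array medians, where a fall could hardly have been seen. The part of cell type composition in the miR-26 values was not tested.

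**Figure D4:**
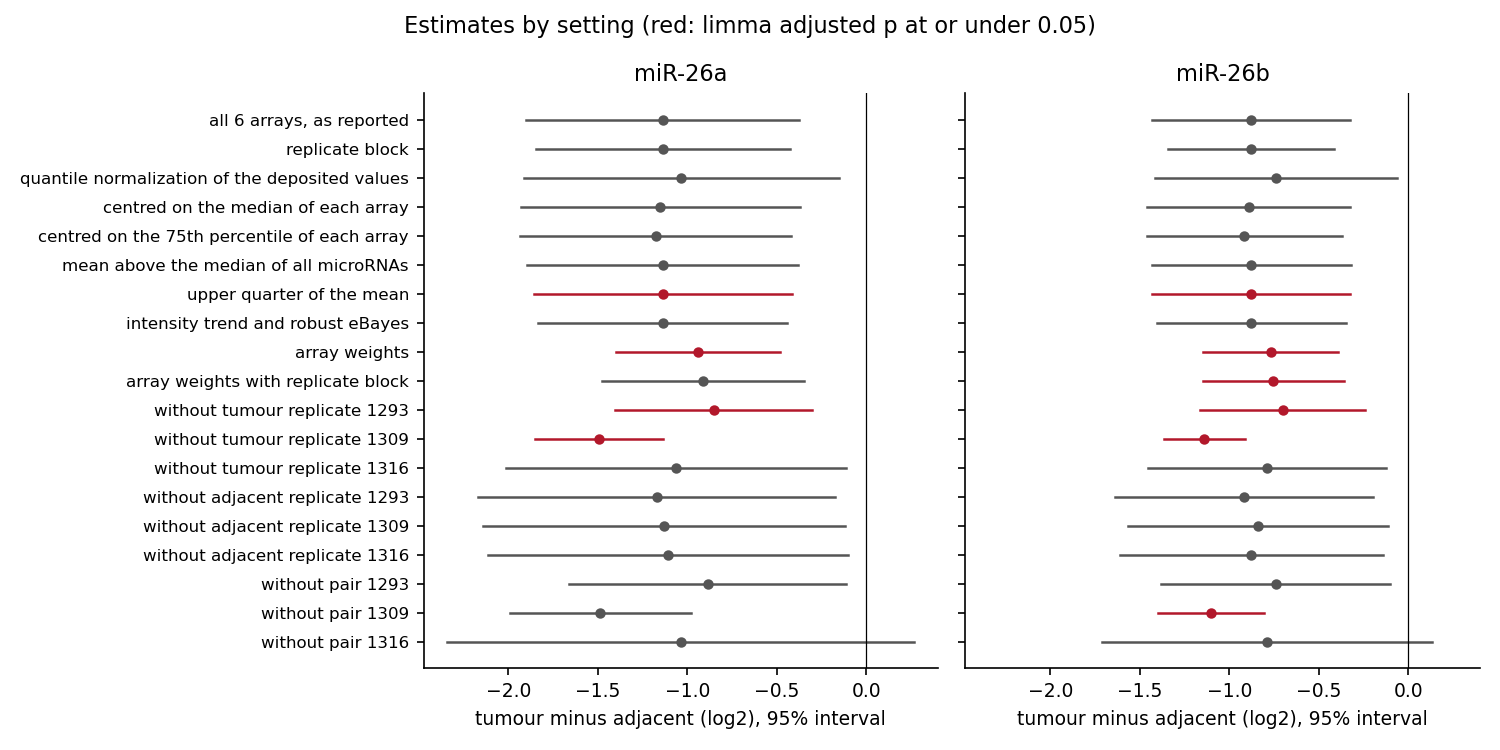
Tumour minus adjacent difference of miR-26a and miR-26b (log2, horizontal axis) with its 95% interval in limma, for all 6 arrays and each alternative setting (vertical axis), in red where the adjusted p was at or under 0.05. Every estimate is below 0, from -1.49 to -0.85 for miR-26a and from -1.14 to -0.70 for miR-26b.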

How the data were processed

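Total RNA from frozen tissue was labelled with cyanine 3-pCp and read on 1-colour Agilent microRNA arrays, per the labels' protocols. Per the submitters' processing notes, the authors used RMA and limma (versions not given). The deposited values were read as log2 because RMA returns that base, though no label states it. The table held 695 rows, 6 arrays, 0 missing values and 0 columns of other series. Scanner files were not analysed here.

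Tumour was compared with adjacent liver over all rows by limma 3.58.1 in R 4.3.3 (lmFit, eBayes, no block, two-sided), with Benjamini-Hochberg adjusted p-values and a threshold of 0.05. By their labels, a tumour and the liver beside it form a pair. Over all 695 rows together, same-pair arrays showed no joint deviation from their group means (r = -0.05 in pair 1293, 0.07 in pair 1309, -0.0031 in pair 1316). These correlations do not speak for single rows. With a replicate block the SE was 0.26 for miR-26a, 0.17 for miR-26b and 0.11 for miR-26b*, against 0.31, 0.23 and 0.15 without it. The fit was tested on simulated data with the same noise SD for all rows and both groups. That check does not cover the wider spread seen among the tumours. Exact permutation tests used scipy 1.17.1, and figures matplotlib 3.10.9.

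The members, lists and tests were chosen with earlier results of these data known. Named microRNAs are all miR-26 rows, the 5 nearest in pattern to each guide among the 174 brightest microRNAs (above the 75th percentile of the mean), all 5 known to target Ezh2, miR-122, and from each other list the called members or, with 0 called, the largest difference. This rule picks neighbours and leading list members by their values. Outside it, miR-195 was named after its values were seen. Of the listed names, miR-1 and miR-199b had no row under that name and were left out. Sequences were matched to the rows by name, from RefSeq (GRCm38.p6). Its coordinates served only to place the hairpins and to find the genes that span them. They were not matched to the arrays, since the study's build is not given in the sources used here. Alternatives were the replicate block, quantile normalization, centring, filters on dim microRNAs, an intensity trend, array weights and leaving out each array or pair.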

Additional observations from a re-analysis of the deposited data

How the results depend on the processing

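In 18 alternatives for each guide, both kept a lower value in tumours, from -1.49 to -0.85 on the log2 scale for miR-26a and from -1.14 to -0.70 for miR-26b, ranges that leaving out single arrays also spanned. In limma with all arrays 0 of the 3 rows were called, where 2.88% of all microRNAs were called. At an unadjusted p under 0.05, 2 of the 3 rows were lower, as were 14.1% of all microRNAs. Leaving out single arrays gave 0 to 2 called rows. The guide miR-26a passed in 4 alternatives and miR-26b in 6. Both passed among the 174 brightest (-1.14 and -0.88, 2 called, fewer microRNAs tested, 6.32% of the 174 called lower). They also passed with array weights (-0.94 and -0.77, 2 called, 12.5% of all microRNAs called lower). Without tumour 1293 and without tumour 1309, 2 were called each, where 12.2% and 5.32% of all microRNAs were called lower. Only miR-26b passed with array weights plus the replicate block (-0.75, 1 called, 5.04% of all microRNAs lower) and without pair 1309 (-1.10, 1 called, 0.863% lower). Adjusted p-values ran from 0.0048 to 0.60 for miR-26a and from 0.0027 to 0.60 for miR-26b, the highest without pair 1316. With the replicate block alone the differences stayed at -1.14 and -0.88 (limma adjusted p = 0.16 and 0.14), and no call of the miR-26 rows changed. Added to array weights, the block removed the call of miR-26a (limma adjusted p = 0.014 without and 0.066 with the block). The cause of the gained calls was not tested. The star arm was not called in any of its 17 alternatives (0.0040 to 0.27) and is not among the 174 brightest. The paired changes between rows kept their sign in 8 alternatives each, with exact permutation p of 0.10 or more, and under the replicate block their exact sign-flip p was 0.25, the smallest that 3 pairs allow.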
